A study of Mus musculus with 8 samples.

Results

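Spermatogonia, the mitotic germ cells at the base of the seminiferous tubule, carry a set of genes that hold the stem cell state and then admit the cell to meiosis, and 10 of these genes, of 23343 in the expression tables, were followed into the meiotic and haploid cells that come after them. The members were chosen by name: *Zbtb16*, *Gfra1*, *Id4*, *Nanos2*, *Nanos3*, *Dmrt1*, *Sohlh1*, *Sohlh2*, *Kit* and *Stra8*. No measured value was used as a rule for the choice, but earlier results of these data were known when it was made. The members take up 11 of the 26099 transcript rows, because *Kit* has an isoform pair whose reads were summed.

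RNA was measured in pachytene spermatocytes (PS), which are in mid meiotic prophase, and in round spermatids (RS), the haploid cells that follow meiosis. Both came from testes of adult C57BL/6 mice lacking *Rnf8*, a ubiquitin ligase, and *Scml2*, a germline Polycomb protein (*Rnf8;Scml2*-dKO), with 2 replicates per stage. H3K27ac, the histone mark of active promoters and enhancers, was mapped in PS and RS of wild-type C57BL/6 adults, again with 2 replicates per stage, 8 samples in all. RNA and acetylation thus come from different genotypes and the values of one are set beside those of the other without a test between them. Wild-type RNA was not analysed here, so no value below separates the effect of the mutations from normal development. The stages were separated by sedimentation through an albumin gradient, which enriches them by size and leaves some other cells. The study reports, from nuclear staining of each fraction, that the large majority of cells were of the wanted stage. For the dKO a preparation used the testes of a single mouse, and the study calls its 2 replicates biological. Both deletions act in the whole animal.

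In textbook accounts GFRA1 is the receptor on stem spermatogonia for GDNF, the factor from Sertoli cells that sustains self-renewal. ZBTB16, ID4 and NANOS2 hold the undifferentiated state, NANOS3 acts in progenitors, and SOHLH1 and SOHLH2 drive differentiation together with the receptor KIT. Retinoic acid then induces STRA8, which starts the meiotic programme, while DMRT1 restrains meiotic entry in spermatogonia. The genes are therefore known for work that is finished before pachytene, and the comparison asks how much of their RNA and promoter acetylation is found afterwards.

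The members' start regions differ in base composition, and 5 are printed because acetylation was measured over them and they span the range from no CG to many. RefSeq promoter sequences, 250 bases before to 50 after a start site in GRCm38.p6 (the assembly of mm10), were matched by symbol for 8 of the 10 genes. *Dmrt1* and *Zbtb16* had no entry. The start site of the *Id4* entry lies 311 bases before the deposited one used for acetylation, which falls outside the printed *Id4* sequence. In the *Id4*, *Nanos2* and *Stra8* promoters the capitals mark CG dinucleotides, and in those of *Sohlh1* and *Sohlh2* they mark the motif CANNTG, the E-box that proteins of the SOHLH class bind, which reads alike on both strands. The *Id4* promoter is at chr13:48260866-48261165 (plus strand), *Nanos2* at chr7:18987274-18987573 (plus), *Stra8* at chr6:34920698-34920997 (plus), *Sohlh1* at chr2:25847199-25847498 (minus) and *Sohlh2* at chr3:55181794-55182093 (plus).
Id4: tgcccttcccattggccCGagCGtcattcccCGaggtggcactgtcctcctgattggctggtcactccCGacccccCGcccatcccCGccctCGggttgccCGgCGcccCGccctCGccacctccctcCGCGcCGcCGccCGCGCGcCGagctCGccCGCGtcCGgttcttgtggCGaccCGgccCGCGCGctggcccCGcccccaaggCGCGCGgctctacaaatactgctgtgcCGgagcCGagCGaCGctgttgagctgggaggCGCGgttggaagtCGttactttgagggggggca
Nanos2: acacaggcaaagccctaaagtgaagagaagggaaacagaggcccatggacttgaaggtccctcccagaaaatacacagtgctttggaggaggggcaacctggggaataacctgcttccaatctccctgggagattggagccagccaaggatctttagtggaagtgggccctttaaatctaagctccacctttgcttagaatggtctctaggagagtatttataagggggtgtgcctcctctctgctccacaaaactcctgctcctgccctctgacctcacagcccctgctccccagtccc
Stra8: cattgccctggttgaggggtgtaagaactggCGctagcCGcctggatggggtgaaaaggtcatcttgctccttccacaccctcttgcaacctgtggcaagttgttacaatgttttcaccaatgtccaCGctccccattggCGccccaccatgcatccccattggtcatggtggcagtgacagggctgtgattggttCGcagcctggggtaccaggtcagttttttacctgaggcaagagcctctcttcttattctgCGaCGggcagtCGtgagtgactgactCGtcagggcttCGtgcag
Sohlh1: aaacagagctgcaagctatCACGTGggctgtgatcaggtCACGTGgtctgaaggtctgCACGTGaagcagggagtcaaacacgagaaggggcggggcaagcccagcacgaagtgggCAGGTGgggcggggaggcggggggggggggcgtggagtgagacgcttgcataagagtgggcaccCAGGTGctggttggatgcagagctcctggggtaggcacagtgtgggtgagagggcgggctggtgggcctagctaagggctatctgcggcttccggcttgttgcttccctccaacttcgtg
Sohlh2: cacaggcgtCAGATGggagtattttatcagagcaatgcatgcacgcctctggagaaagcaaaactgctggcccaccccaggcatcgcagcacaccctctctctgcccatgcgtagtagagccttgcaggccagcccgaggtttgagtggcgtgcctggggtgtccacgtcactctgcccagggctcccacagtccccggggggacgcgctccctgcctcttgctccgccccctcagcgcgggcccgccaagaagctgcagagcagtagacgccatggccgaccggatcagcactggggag

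The *Id4* promoter held 39 CG dinucleotides in 300 bases, more than 95.6% of the 32851 mouse promoters in the same table, whose median was 7. *Kit* had 20 or 21 for its start site pair, *Sohlh2* 17, *Sohlh1* 14, *Gfra1* 12, *Stra8* 10 and *Nanos3* 3. The *Nanos2* promoter held 0. An E-box occurred 5 times in the *Sohlh1* promoter, which 2.10% of all promoters equal or exceed, 3 times in that of *Gfra1*, 2 times in *Nanos3* and once each in *Kit* and *Sohlh2*, while 72.3% of all promoters hold at least 1. The letters ACANTGT, a core of the DMRT1 motif, were found on either strand in the *Sohlh1* and *Stra8* promoters and in 7.54% of all promoters. AGGTCA, the element that nuclear receptors bind, occurred 2 times in the *Stra8* promoter and once each in those of *Sohlh1* and *Nanos2*, and in 16.3% of all promoters. TGACGTCA was in no member's promoter and in 1.79% of all.

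The RNA libraries held 9655405 to 12289694 reads on genes, of which the 10 members took 886 to 1357 reads. Reads remained on both targeted genes, with 93, 110, 61 and 50 on *Rnf8* and 40, 92, 44 and 98 on *Scml2* in PS replicates 1 and 2 and RS replicates 1 and 2. The tables give whole transcripts, so these reads do not check the deleted parts. Stage labels were checked against markers. All 7 spermatid genes were called higher in RS (edgeR, threshold given below), with summed RPKM (reads per kilobase, scaled to library size) of 440 and 761 in PS against 12941 and 13772 in RS. Of 7 pachytene genes, *Piwil1*, *Pou5f2* and *Mybl1* were called lower in RS, *Pgk2* was called 3.97-fold higher, and *Ldhc*, *Ccna1* and *Hist1h1t* were not called. Their summed RPKM, most of it from *Ldhc*, was 3949 and 4029 against 2987 and 2917. Markers of somatic cells moved with the stages. All 6 Leydig genes were called lower in RS, with summed RPKM of 729 and 547 in PS against 68.3 and 42.6 in RS. Of these, *Lhcgr* met the minimum of 10 reads in 2 samples through PS alone, the stage where it is higher, and the other 5 met it in both stages. All 4 macrophage genes were called higher in RS, with 1.05 and 1.26 in PS against 12.6 and 11.5, and 3 of them met the minimum of 10 reads in 2 samples through RS alone. The 8 Sertoli genes summed to between 4.45 and 8.72 RPKM, with stages that overlapped, and 4 peritubular genes to between 4.84 and 5.13. Of the 5 Sertoli genes tested, *Wt1* (2.48-fold, edgeR adjusted p = 0.0236) and *Rhox5* (4.38-fold, 0.0248) were called higher in RS, as was the peritubular gene *Cnn1* (6.09-fold, 0.00599), and *Rhox5* and *Cnn1* met the minimum through RS alone. Of the Sertoli genes *Fshr* was at 0 in PS replicate 2 and RS replicate 2 and *Amh* in RS replicate 1, and of the macrophage genes *Cd163* was at 0 in PS replicate 1.

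RNA of all 10 members was detected in every sample, at levels between the percentiles 24.9 (*Nanos2*) and 86.4 (*Id4*) of all genes. A threshold of 1 RPKM, which 47.4% to 51.3% of all genes reached, was reached by 8 and 6 members in the PS replicates and by 9 in each RS replicate. The median member had 2.55 and 1.68 RPKM in PS and 2.79 and 3.03 in RS. By mean RPKM the order in PS was *Id4* (23.2), *Stra8* (7.48), *Dmrt1* (5.53), *Kit* (3.77), *Sohlh2* (2.26), *Sohlh1* (1.96), *Zbtb16* (0.952), *Nanos3* (0.786), *Gfra1* (0.728) and *Nanos2* (0.123). The replicate ranges of *Dmrt1*, *Kit*, *Sohlh2* and *Sohlh1* overlapped from one neighbour to the next, as did those of *Zbtb16*, *Nanos3* and *Gfra1*. In RS the order was *Stra8* (10.3), *Dmrt1* (9.78), *Kit* (3.73), *Sohlh1* (3.59), *Sohlh2* (3.26), *Gfra1* (2.91), *Id4* (2.63), *Nanos3* (1.79), *Zbtb16* (1.76) and *Nanos2* (0.202). There the ranges of *Stra8* and *Dmrt1* overlapped, those of *Kit*, *Sohlh1* and *Sohlh2* overlapped from neighbour to neighbour, and those of *Nanos3* and *Zbtb16* overlapped. *Id4* thus stood first in PS and seventh in RS.

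**Figure D1:**
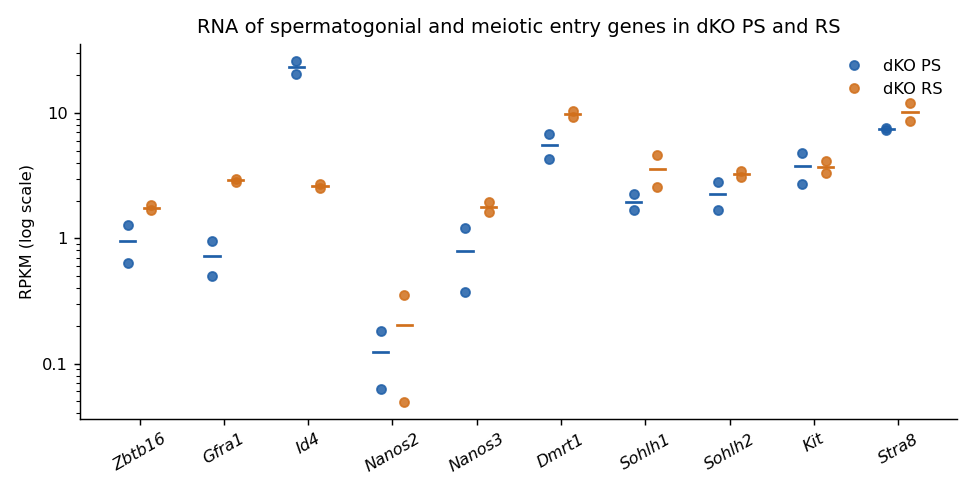
RPKM (log scale) of the 10 genes in dKO PS (blue) and dKO RS (orange), with 1 point per replicate and a bar at the mean. *Id4* falls from above 20 RPKM in both PS replicates to below 3 in both RS replicates, while *Gfra1* goes from below 1 RPKM to above 2.8.

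Between the stages, 3 of the 9 members that could be tested were higher in RS and 1 was lower. A gene was called when edgeR's quasi-likelihood test gave a Benjamini-Hochberg adjusted p below 0.05 over 14647 genes and the change was at least 1.5-fold. *Gfra1*, *Dmrt1* and *Zbtb16* rose and *Id4* fell. Of all genes tested, 30.4% were called higher and 27.6% lower, and the members stood at 33.3% and 11.1%. The median log2 fold change of the 9 members was 0.87, against 0.01 over all genes tested. *Nanos3* met the minimum of reads through RS alone, the stage where it is higher, and the median of the other 8 was 0.72. Of the 10 members, 9 had more RNA in PS replicate 1 than in PS replicate 2. The share of all genes with this order was not counted, and their median RPKM was 0.823 and 0.743 in these replicates. Without PS replicate 1 the median log2 fold change of the members was 1.07, and without PS replicate 2 it was 0.59. In such bulk samples, fewer cells of a type and less RNA per cell cannot be told apart.

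*Id4* encodes an inhibitor of basic helix-loop-helix factors and marks stem spermatogonia. It had 26.1 and 20.4 RPKM in PS and 2.73 and 2.53 in RS, from 492, 375, 63 and 49 reads. The stages were far apart, and its level in PS exceeded that of 86.4% and 83.8% of all genes. *Id4* RNA was 8.58-fold lower in RS (log2 fold change -3.10, SE 0.21, n = 2 per stage, edgeR adjusted p = 7.17e-06). The 6 Leydig genes, with *Lhcgr* tested through PS alone, fell between the same samples by similar or larger factors. These went from 8.34-fold for *Star* to 18.2-fold for *Hsd3b1*, and the part of Leydig RNA in the *Id4* values was not tested. An antisense gene overlapping *Id4*, *A330033J07Rik*, had 1 to 4 reads per sample, and the libraries do not mark strand.

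*Gfra1*, the GDNF receptor, had 0.953 and 0.503 RPKM in PS and 2.84 and 2.99 in RS, from 34, 18, 127 and 113 reads. Both spermatid values were above both spermatocyte values. The rise was 4.16-fold (log2 fold change 2.06, SE 0.31, n = 2, edgeR adjusted p = 0.000551). Macrophage genes rose between the same samples, by 13.3-fold for *Csf1r*, as did *Wt1*, *Rhox5* and *Cnn1*, and the part of such cells in this and the other rises was not tested.

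*Dmrt1*, a DM-domain transcription factor, had 6.78 and 4.28 RPKM in PS and 10.3 and 9.24 in RS, from 107 to 325 reads per sample. It was 1.82-fold higher in RS (log2 fold change 0.87, SE 0.23, n = 2, edgeR adjusted p = 0.0105). *Zbtb16*, a transcriptional repressor of the undifferentiated state, had 1.27 and 0.634 RPKM in PS and 1.68 and 1.84 in RS, and was 1.90-fold higher in RS (log2 fold change 0.93, SE 0.32, n = 2, edgeR adjusted p = 0.0305). The values of both genes did not overlap between the stages. The *Zbtb16* call was lost without PS replicate 2 (edgeR adjusted p = 0.0806), without RS replicate 1 (0.0587) and without RS replicate 2 (0.0999), whereas *Dmrt1*, *Gfra1* and *Id4* were called in each of these fits.

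The differentiation factors *Sohlh1* and *Sohlh2*, basic helix-loop-helix partners, were present at similar levels to each other. *Sohlh1* had 2.25 and 1.68 RPKM in PS and 2.55 and 4.62 in RS (log2 fold change 0.89, SE 0.37, edgeR adjusted p = 0.0614). *Sohlh2* had 2.84 and 1.69 RPKM in PS and 3.44 and 3.07 in RS (log2 fold change 0.57, SE 0.29, edgeR adjusted p = 0.114). Neither passed the test. *Sohlh1* passed it without PS replicate 1 (edgeR adjusted p = 0.0336) and without RS replicate 1 (0.0327), and *Sohlh2* without PS replicate 1 (0.0111).

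*Stra8*, the gene whose induction by retinoic acid opens meiosis, had 7.30 and 7.67 RPKM in PS and 12.0 and 8.58 in RS, the highest mean of the members in spermatids, although *Dmrt1* was higher in RS replicate 2. Its difference did not pass the test (log2 fold change 0.50, SE 0.23, edgeR adjusted p = 0.0824), although it did without RS replicate 2 (0.0351). *Kit*, the receptor tyrosine kinase for stem cell factor, had 4.83 and 2.70 RPKM in PS and 4.12 and 3.35 in RS, with the RS values inside the PS range. Its log2 fold change was 0.04 (SE 0.27, edgeR adjusted p = 0.896), and it turned to -0.27 without PS replicate 2 and to -0.03 without RS replicate 1. A shorter *Kit* transcript that starts inside the gene is known in spermatids, and the *Kit* rows here are full-length isoforms only. Reads of the shorter form that fall in exons of these isoforms cannot be told apart in the *Kit* values. Leydig cells also express *Kit*, and their markers fell between the stages as given above.

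The RNA-binding proteins NANOS2 and NANOS3 had the fewest reads. *Nanos3* had 10, 3, 20 and 14 reads in PS and RS replicates, or 1.20, 0.370, 1.96 and 1.63 RPKM. It met the minimum of 10 reads in 2 samples through RS alone. Its log2 fold change was 1.22 (SE 0.56, edgeR adjusted p = 0.0838), and it passed the test without PS replicate 1 (0.00941), where the spermatocytes are represented by 3 reads. *Nanos2* had 3, 1, 1 and 6 reads, or 0.183, 0.0626, 0.0497 and 0.354 RPKM. It did not reach the minimum of 10 reads in 2 samples and was not tested, and no difference was detectable at this depth.

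**Figure D2:**
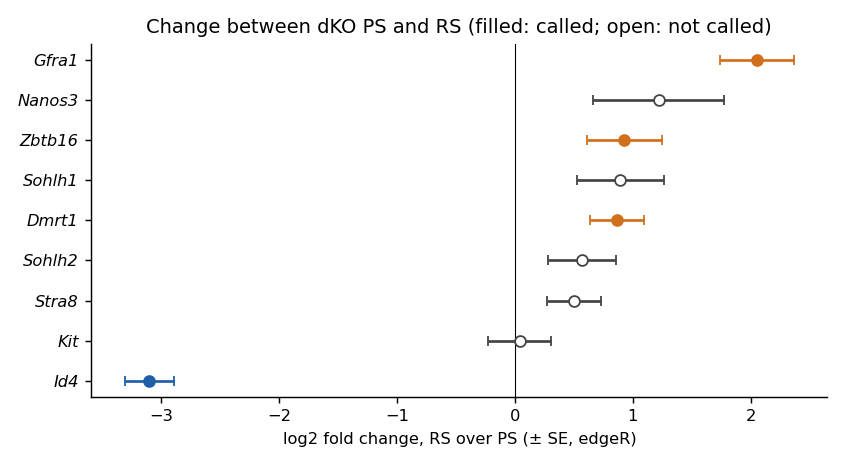
Log2 fold change of dKO RS over dKO PS from edgeR for the 9 genes tested, with bars of 1 SE. *Id4* at -3.10 is the single gene called lower, and *Gfra1* at 2.06, *Zbtb16* at 0.93 and *Dmrt1* at 0.87 are called higher (filled points).

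Other genes of the same pathways were taken from lists chosen by known function. Of 22 further genes of undifferentiated spermatogonia, 17 were tested, 6 were higher in RS (35.3%, against 30.4% of all genes), 1 was lower (5.88%, against 27.6%) and 10 did not pass, with a median log2 fold change of 0.71. The share of higher calls is near that of all genes. *Lhx1* and *Cdh1* met the minimum of reads through RS alone. Among the other 15, 5 were called higher and 1 lower, with a median of 0.71. *Lhx1*, a GDNF-responsive transcription factor, had 0.0638 and 0.0327 RPKM in PS and 1.07 and 1.33 in RS. *Etv5*, another GDNF-responsive factor, had 0.781 and 0.306 RPKM in PS and 1.38 and 1.38 in RS, and was higher in RS by 2.61-fold (edgeR adjusted p = 0.0149), a call lost without RS replicate 2 (0.0530). *Ccnd2*, a D-type cyclin, rose 2.85-fold (edgeR adjusted p = 0.00153). *Egr4* fell instead, from 11.2 and 12.9 RPKM to 3.47 and 3.27 (edgeR adjusted p = 8.97e-05). The median log2 fold change of the list was 1.05 without PS replicate 1 and 0.62 without PS replicate 2.

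Of the 9 GDNF-family and KIT-ligand genes, 6 were tested, 4 were higher in RS (66.7%, against 30.4% of all genes) and 1 was lower (16.7%, against 27.6%), with a median log2 fold change of 1.52. *Ret*, the signalling partner of GFRA1, had 0.280 and 0.193 RPKM in PS and 1.04 and 1.54 in RS, a 5.91-fold rise (edgeR adjusted p = 0.000345). *Gfra2*, the receptor for neurturin, rose 6.12-fold to 7.49 and 8.39 RPKM (edgeR adjusted p = 0.000332), and *Nrtn*, which encodes neurturin, rose 4.85-fold (0.00114). *Gfra4* fell 2.59-fold (edgeR adjusted p = 0.000271), from 23.7 and 28.3 RPKM to 10.1 and 9.43. The ligand gene *Gdnf* itself stayed below 0.121 RPKM in each sample and was not tested, and *Kitl*, which encodes the KIT ligand, had 0.757, 0.281, 0.721 and 0.498 RPKM and did not pass (edgeR adjusted p = 0.599).

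The retinoid genes, which make, bind and break down the signal that induces *Stra8*, moved in both directions. Of 17, 13 were tested, 6 were higher in RS (46.2%, against 30.4% of all genes) and 4 lower (30.8%, against 27.6%), with a median log2 fold change of 0.12. Of the 13, 2 met the minimum of reads through RS alone and 1 through PS alone. Among the other 10, 4 were called higher and 3 lower, with a median of -0.096. *Aldh1a2*, the retinal dehydrogenase of meiotic germ cells, fell 2.21-fold from 108 and 108 RPKM to 48.8 and 46.3 (edgeR adjusted p = 6.59e-05). *Cyp26b1*, which degrades retinoic acid, rose 19.1-fold from 0.446 and 0.210 RPKM to 6.58 and 5.32 (edgeR adjusted p = 1.23e-05). *Rxrg*, a retinoid receptor gene, had 2 and 1 reads in PS and 30 and 32 in RS, and the synthetic enzyme *Aldh1a3* had 7 and 5 in PS and 45 and 31 in RS, so they and *Lhx1* met the minimum of reads through RS alone. *Aldh1a1* fell 2.75-fold (edgeR adjusted p = 0.00373). *Stra6*, a retinol transporter, had 20, 16, 8 and 0 reads and met the minimum through PS alone. Its call (edgeR adjusted p = 0.0296) was lost without RS replicate 2 (0.180), with DESeq2 (adjusted p = 0.0683) and with limma on log2(RPKM + 1), where the log2 fold change of -0.50 was under the 1.5-fold threshold. The median log2 fold change of the retinoid genes was -0.24 without RS replicate 1 and 0.72 without PS replicate 2.

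Of 19 genes of meiotic entry and early prophase, 17 were in the tables and tested, 4 were higher in RS (23.5%, against 30.4% of all genes) and 6 lower (35.3%, against 27.6%), with a median log2 fold change of -0.36. *Rec8*, a meiosis-specific cohesin, rose 6.39-fold from 7.13 and 10.1 RPKM to 52.2 and 54.9 (edgeR adjusted p = 9.30e-06). *Tex15* rose 5.53-fold (edgeR adjusted p = 9.72e-06) and the recombinase gene *Dmc1* 2.76-fold (0.000309). *Spo11*, which makes the meiotic double-strand breaks, fell 2.43-fold from 61.7 and 72.9 RPKM to 27.7 and 26.1 (edgeR adjusted p = 0.000124), *Gm1564* fell 2.25-fold (0.000202) and the axis gene *Sycp2* 2.20-fold (0.00223). Each of these 6 calls was kept when any 1 library was left out. The median log2 fold change of the list was -0.10 without RS replicate 1 and -0.39 without RS replicate 2.

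**Figure D3:**
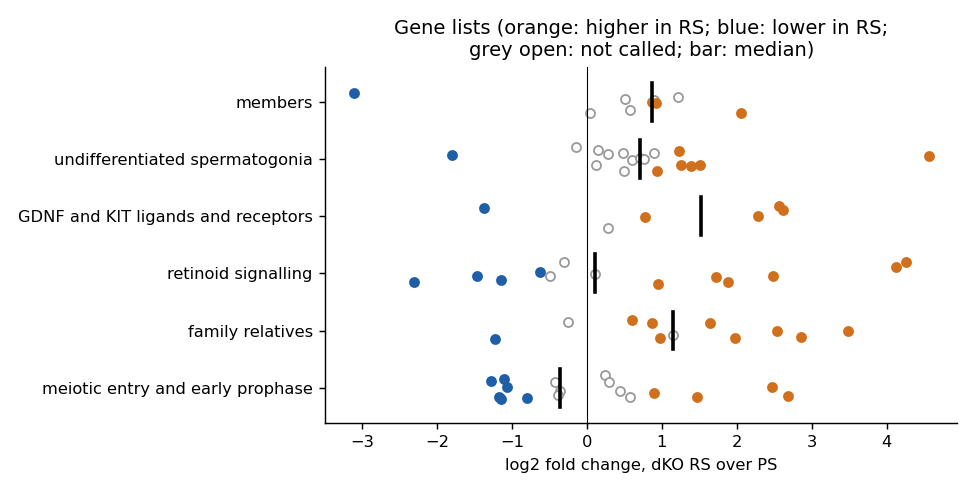
Log2 fold change of dKO RS over dKO PS for the members and 5 lists of related genes, with 1 point per gene (orange, called higher in RS, blue, called lower, grey open, not called) and a black bar at the median. The members and the undifferentiated list lie mostly to the right of 0 with *Id4* (-3.10) and *Egr4* (-1.79) far to the left, while retinoid and early prophase genes spread to both sides.

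H3K27ac near the start sites was weak at most members in wild-type cells. Within 2 kb of a start site, 4 of 10 members had a peak in both PS replicates and 6 of 10 in both RS replicates, against 55.5% and 50.8% of all 23343 genes. Among members with a peak, the median fold enrichment over the sample's background was 4.93 to 5.76 across the 4 samples, where the median of all genes with a peak was 11.0 to 16.4. Fold enrichment is the pileup of fragments at the summit over a constant background of the same sample. It was not scaled between samples. With 2 samples per stage no exact two-sided permutation test of a single value can go below p = 0.333, so the values are given with their overlap and without a test.

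*Id4* carried the strongest acetylation, with fold enrichments of 17.7 and 24.1 in PS and 6.51 and 4.64 in RS, over the whole printed promoter and much of the gene (chr13:48260394-48263066). Both PS values were above both RS values. *Kit* had 7.00 and 4.93 in PS, 4.88 in RS replicate 1 and no peak in RS replicate 2, so that PS replicate 2 and RS replicate 1 were nearly level. These were the members with PS above RS, 2 of 10, against 34.1% of all genes.

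*Stra8* had no peak in PS and fold enrichments of 7.32 and 5.22 in RS. Its region, chr6:34920966-34921945, covers exon 1 and part of intron 1 and takes in the last bases of the printed promoter. *Sohlh2* had no peak in PS replicate 1 and 4.93 in PS replicate 2, then 6.51 and 5.81 in RS. These 2 of 10 members had RS above PS, against 8.59% of all genes. *Stra8* RNA in the dKO, as given above, was present in both stages.

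*Zbtb16* (6.17, 4.38, 3.66 and 5.22 in PS and RS replicates) and *Dmrt1* (5.35, 6.03, 6.10 and 5.22) had a peak in every sample, with ranges that overlapped between the stages. *Sohlh1* had 4.53 in PS replicate 1, none in PS replicate 2, and 4.88 and 4.06 in RS. The 4.06 came from a separate peak 1444 bases before the start site, in RS replicate 2 alone. The *Sohlh1* region that covers the printed promoter with its E-boxes had 3.48 in RS replicate 2, the lowest fold enrichment in that list. *Nanos3* had 4.12 in PS replicate 1 and 3.25 in RS replicate 1 alone. *Nanos2* had a single peak of 3.29 in PS replicate 2, the lowest fold enrichment in that list, 1326 bases after its start site and outside the CG-free promoter. With a window of 5 kb its mean log2(1 + fold enrichment) was 4.16 in PS and 3.10 in RS, against 1.05 and 0 within 2 kb. The lists do not assign the added intervals to *Nanos2*. *Gfra1* had no peak within 2 kb of the deposited start site in any sample. Its RefSeq promoter entry starts from a site 932 bases away from that one.

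**Figure D4:**
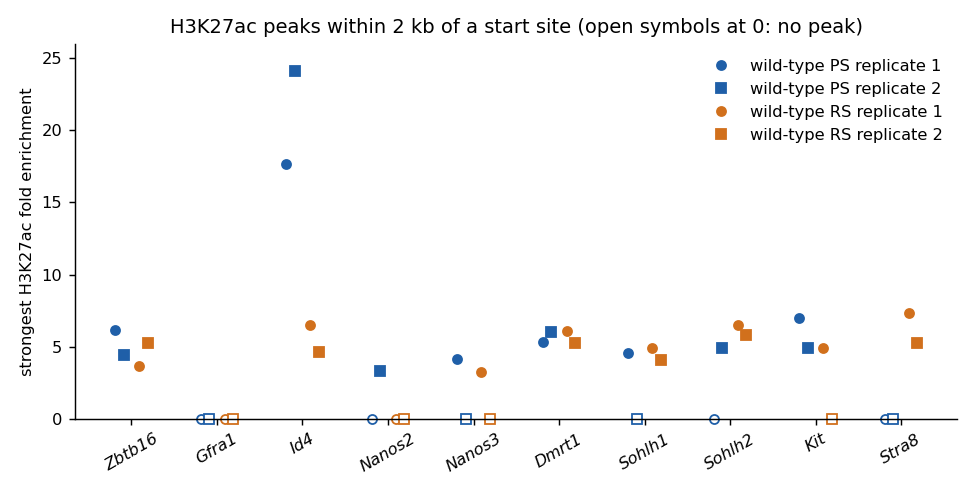
Strongest H3K27ac fold enrichment within 2 kb of a start site of each gene in wild-type PS (blue) and RS (orange), replicate 1 as circles and replicate 2 as squares, open symbols at 0 where no peak was listed. *Id4* in PS (17.7 and 24.1) stands above the other values, which reach at most 7.32, and *Gfra1* has no peak in any sample.

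Counting also the intervals that the deposited lists assign to a member by nearest gene, and joining intervals within 500 bases, gave 34 regions. Of these 9 had peaks in all 4 samples and 13 in a single sample. Of the 13, 8 were in RS replicate 1 alone, whose list held 74919 peaks against 41095 to 49434 in the others. The shares of all regions with peaks in every sample or in a single sample were not counted, so these counts stand without a background. Both RS values exceeded both PS values in 6 regions (17.6%, against 19.7% of all 56629 regions), and both PS values exceeded both RS values in 9 (26.5%, against 25.5%). In number, neither share departs from the background by much.

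*Gfra1* had its acetylation inside and beyond the gene, far from its start site. The region in intron 9, chr19:58259819-58261327, had fold enrichments of 14.4 and 12.1 in PS, 3.66 in RS replicate 1 and none in RS replicate 2. The region in intron 5, chr19:58357968-58362291, had 4.53 and 3.29 in PS and 11.0 and 6.39 in RS. A further region, chr19:58229728-58233502, lies 2079 bases beyond the end of the gene and had 4.53 and 5.48 in PS and 13.0 and 11.0 in RS. The order of the stages was thus opposite in the intron regions, with no overlap of the replicates at each. The assignment of these regions to *Gfra1* is by nearest gene.

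The 151 bases around the strongest summit of each intron region are shown because these sites carry the *Gfra1* acetylation in opposite stages. They are written in the direction of the gene (minus strand), the intron 5 window at chr19:58361135-58361285 and the intron 9 window at chr19:58260641-58260791, with CANNTG in capitals, which each holds 2 times.
Gfra1 intron 5: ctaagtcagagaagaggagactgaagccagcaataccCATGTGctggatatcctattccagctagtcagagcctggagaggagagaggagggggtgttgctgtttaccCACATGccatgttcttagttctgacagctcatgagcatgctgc
Gfra1 intron 9: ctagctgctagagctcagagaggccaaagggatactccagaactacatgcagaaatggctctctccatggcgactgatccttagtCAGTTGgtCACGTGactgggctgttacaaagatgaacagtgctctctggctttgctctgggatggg

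*Kit* had a like split among 7 regions. The region upstream of the gene at chr5:75568389-75570463, which ends 4524 bases before the start site, had fold enrichments of 13.2 and 12.1 in PS and 4.88 and 6.39 in RS. A region 174215 bases before the start site, chr5:75398305-75400772, had none in PS replicate 1, 4.93 in PS replicate 2, and 12.6 and 9.29 in RS. Late in the gene, RS replicate 1 alone had peaks in intron 16 (4.88) and intron 17 (3.66). The strongest *Kit* acetylation of either stage was therefore outside the 2 kb window around its start site.

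**Figure D5:**
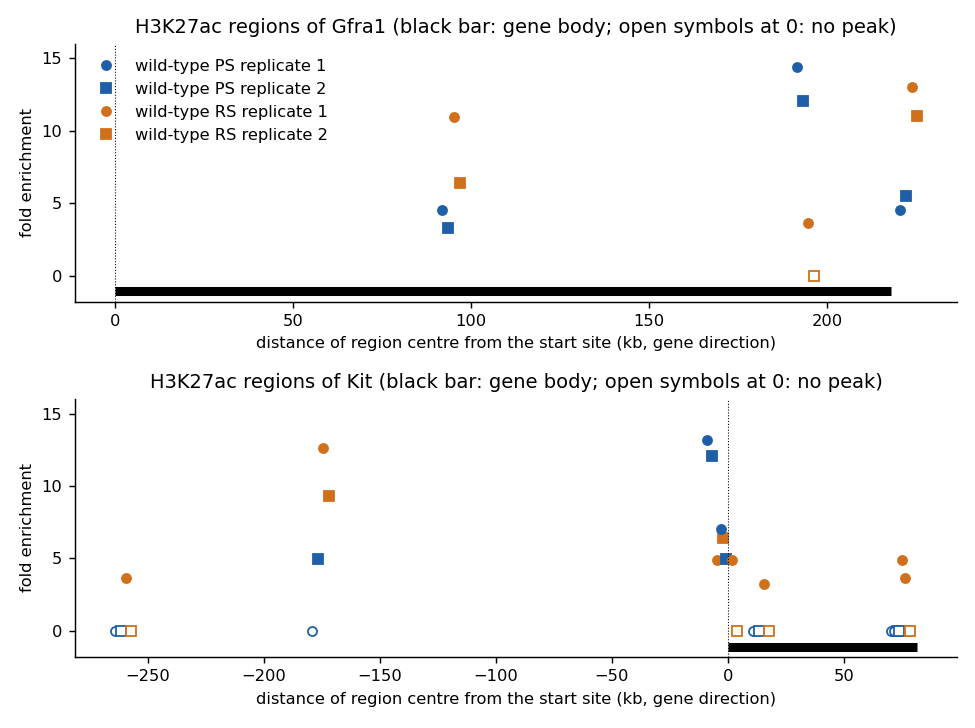
H3K27ac fold enrichment of each region assigned to *Gfra1* (3 regions) and *Kit* (7 regions) against the distance of its centre from the start site in kb, in wild-type PS (blue) and RS (orange), replicates as circles and squares, drawn slightly apart sideways so that they can be told apart. In *Gfra1* the intron 9 region is higher in PS (14.4 and 12.1) while the intron 5 and downstream regions are higher in RS.

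*Zbtb16* had acetylation at its start in both stages and, along the gene, mostly in PS. Regions in exon 7 (8.64 and 7.13 in PS), intron 2 (5.35 and 8.22), intron 3 (5.35 and 3.84) and 5636 bases beyond the gene (4.53 and 4.38) had a peak in both PS replicates and none in RS. One more region of intron 2 had a peak of 4.48 in RS replicate 1 alone. The regions of *Nanos3* with the higher values lay upstream, such as chr8:84197111-84204761 with 18.5 and 23.6 in PS and 25.6 and 19.2 in RS, and the lists assign that region to a microRNA cluster as well.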

How the data were processed

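Samples (dKO RNA-seq and wild-type H3K27ac ChIP-seq, each of PS and RS, 2 biological replicates per stage) were grouped by their labels. The members and gene lists were chosen with earlier results of these data known. Per the submitters' processing notes the tools were Bowtie 1.1.1, MACS2 2.1.0.20140616 and STAR 2.4.2a on mm10, and the study's methods name other versions of the first pair. The authors split uniquely aligned reads between RefSeq isoforms and deposited read counts, without normalization, and RPKM, normalized for length and library size. The deposited peak lists give the pileup signal at each summit, its -log10 p and q values and its fold enrichment, a ratio to a constant background, called per sample. Read totals of the ChIP libraries are not given.

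Isoform rows were summed per gene. RS and PS counts were compared with edgeR 4.0.16 (TMM, quasi-likelihood, Benjamini-Hochberg) for genes reaching 10 reads in 2 or more samples, and called below an adjusted p of 0.05 where the change was 1.5-fold or larger. The SE is the log2 fold change over the square root of F. P-values set the difference between the stages against the spread between these replicates, which is estimated in part over all genes tested. Genes under 10 reads have a large counting error. The strongest fold enrichment within 2 kb of a start site was taken per sample, and intervals within 500 bases were joined. The genes named are the members, Rnf8 and Scml2, and from each list up to 3 called genes per direction with the largest change and at least 10 reads in each sample of the higher group; *Gdnf* and *Kitl* were added as ligands, and single marker genes, after their values were seen. Alternatives were DESeq2 1.42.0, limma 3.58.1 on log2(RPKM + 1) and log2(RPKM + 0.1), other scaling, filters, windows, thresholds, the replicate block and each sample left out. Scripts (R 4.3.3, Python 3.11.15) were tested on simulated data.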

Additional observations from a re-analysis of the deposited data

How the results depend on the processing

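Of the alternatives to the RNA results, DESeq2, RLE size factors, adjusted p alone and the replicate block each left 3 members higher and 1 lower in RS. With the replicate block, 4589 genes were higher and 4134 lower over all genes. Among the genes of the lists 30 were higher and 13 lower, against 28 and 13 without the block. Both dKO stages can be purified from a single mouse, but neither labels nor methods say whether replicates with the same number came from the same one, and the correlation of their deviations over genes was 0.225. No member's call changed with the block. Leaving out each library in turn gave 2 to 6 members higher in RS (the highest without PS replicate 1) and 16 to 32 genes of the lists higher, against 28 (the lowest without RS replicate 2, where fewer genes passed the filter). The log2 fold change of *Kit*, 0.04, ranged from -0.27 to 0.48 over these, at -0.27 without PS replicate 2 and at -0.03 without RS replicate 1. *Zbtb16* lost its call in 5 of 11 alternatives, with adjusted p from 0.000602 to 0.0999 over them. *Sohlh1* gained one without the filter on low counts.

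A peak in both PS replicates was found for 2 members at a -log10 q of at least 5 and for 8 when 1 replicate sufficed, against 4. In RS, 1 member remained at that q, against 6. The shares of all genes at these settings were not counted. Leaving out a ChIP replicate gave 6 members in PS, where 57.1% and 57.6% of all genes had a peak in the single replicates. In RS it gave 6 to 8, against 51.1% and 59.1% of all genes. Genes under 10 reads, ChIP peaks near the lists' thresholds and 2 samples per stage limit what can be told.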

Other observations

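Relatives of the members were taken from the same gene families. Of 12 genes, 11 were tested, 8 were called higher in RS (72.7%, against 30.4% of all genes) and 1 lower (9.09%, against 27.6%), with a median log2 fold change of 1.15. Of the 11, 5 met the minimum of 10 reads in 2 samples through RS alone, *Dmrt2*, *Dmrt3*, *Dmrta2*, *Id2* and *Id1*, and 4 of these are among the higher calls. Of the other 6, 4 were called higher and 1 lower, with a median of 0.74. *Dmrta2*, a DM-domain gene like *Dmrt1*, had 9 and 23 reads in PS and 162 and 100 in RS. *Dmrt2* had 1 and 2 reads in PS and 22 and 18 in RS, and *Dmrt3* had 5 and 7 in PS and 38 and 40 in RS. *Dmrtc2*, a DM-domain gene of meiotic germ cells, fell 2.33-fold from 57.3 and 76.2 RPKM to 24.9 and 31.1 (edgeR adjusted p = 0.000602). The relatives of *Id4* had other values than *Id4* itself: *Id3* had 1.47 and 1.13 RPKM in PS and 4.12 and 3.83 in RS, and *Id2* had 0.414 and 0.495 against 1.40 and 2.14, both named after their values were seen. Without RS replicate 1 or RS replicate 2, 7 of the 12 were tested, with a median log2 fold change of 0.91 and 1.02.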
